A study of Mus musculus with 6 samples.

Results

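Pax3, Pax7, Lbx1, Met, Meox1, Meox2 and Pitx3 are genes of the muscle progenitor program, and their Sox6 and RNA polymerase II (Pol II) ChIP-seq reads were examined in mouse fetal myotubes. The members are the 7 genes named for this program, out of 23030 genes with a RefSeq counterpart in the annotation of NCBI Build 37 (mm9), the build of the deposited reads, and all 7 were found in it. The cells were wild type C57BL/6 primary myoblasts of E18.5 limb muscle, recorded at 17 passages and kept for 48 hours in differentiation medium with 2% horse serum to form myotubes. The 6 libraries fall into 3 groups of 2: Sox6 ChIP, Pol II ChIP with an antibody to the repeat of the Pol II carboxy-terminal domain, and input DNA, which is chromatin before immunoprecipitation. The 3 groups share the strain, cells and culture, so each comparison is between an immunoprecipitation and input, not between conditions. The 2 ChIP experiments per antibody were described by the study as independent, but nothing ties them to separate animals, so the spread between replicates may be technical.

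Pax3 and Pax7 are paired-box transcription factors that mark muscle progenitors, Pax3 mostly in the somite and the embryonic limb and Pax7 in fetal progenitors and adult satellite cells, the stem cells of muscle. Lbx1 is a homeobox factor of the precursors that migrate into the limb, and Met is the receptor of hepatocyte growth factor that these cells need to leave the somite. Meox1 and Meox2 are homeobox factors of the somite and limb muscle, and Pitx3 is a homeobox factor best known in dopaminergic neurons and the lens that is also made in differentiating muscle. Sox6 is an HMG-box factor that binds DNA at Sox motifs and has no activation domain of its own.

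The Sox6 libraries hold 2985437 and 1468604 mapped reads, the Pol II libraries 1538757 and 2762155, and the inputs 21973495 and 24249850. Genes of differentiated myotubes carried Pol II in these cells: all 12 markers listed for them had more Pol II than input over the gene body. Their summed level was 419.0 and 440.0 RPKM (reads per kilobase of gene and per 1000000 mapped reads) against 8.63 and 9.11 in the inputs. The marker lists were chosen with earlier results of these data known. None of 10 fibroblast markers and none of 4 endothelial markers was higher than input. Their summed Pol II levels were 2.10 and 2.00 RPKM and 0.82 and 0.746 RPKM, against 4.75 and 4.62 and 1.55 and 1.57 RPKM in the inputs. Among Schwann cell, neuron and blood markers, 1 of 5, 1 of 6 and 1 of 3 tested were higher (Erbb3, Tubb3 and Cd68, which are named here after their values were seen). The summed Pol II levels of these lists were 9.79 and 8.88, 2.03 and 2.20, and 7.80 and 8.61 RPKM. Their inputs summed to 1.96 and 2.28, 2.00 and 2.10, and 1.82 and 2.00 RPKM. Most of the Schwann cell sum was Erbb3 (7.96 and 7.75 RPKM), and most of the blood sum was Cd68 (7.03 and 7.83 RPKM). No read lay on the fibroblast marker Twist1 or the red cell marker Hbb-b1 in either Pol II library. Their input was also low, at 0.0848 and 0.288 RPKM for Twist1 and 0.0589 and 0.107 RPKM for Hbb-b1. The median gene had 0.46 and 0.475 RPKM of input, so the lack of reads on these 2 genes does not show that Pol II was absent. Where only some cells of a culture use a gene, fewer such cells and less Pol II per cell cannot be told apart in these libraries.

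Met was the single gene of the 7 with Sox6 peaks. Its gene (chromosome 6, 17413800 to 17523980, plus strand, 22 exons) held 2 peaks common to both Sox6 replicates, 1 in intron 4 and 1 in intron 19, and a peak in intron 2 that was called in replicate 1 only. A common peak lay in or within 20 kb of 996 of all 23030 genes (4.32%), a replicate 1 peak near 9.64% and a replicate 2 peak near 6.68%, so 1 gene of 7 is few to set against these shares. For the other 6 genes the nearest common peak lay between 341 kb from Pax3 and 1410 kb from Lbx1. The 3 peak sequences follow, read from the plus strand of NCBI Build 37 and shown because they are the only Sox6 sites at these genes, with capitals for the Sox motif (ACAAAG or ACAATG) and the E-box (CAGCTG or CAGGTG), each searched on both strands.
Met intron 4, common peak, chr6:17466242-17466401: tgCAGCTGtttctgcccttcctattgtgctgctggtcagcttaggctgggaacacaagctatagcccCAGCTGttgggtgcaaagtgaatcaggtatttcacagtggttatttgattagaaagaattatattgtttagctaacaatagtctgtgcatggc
Met intron 19, common peak, chr6:17512562-17512701: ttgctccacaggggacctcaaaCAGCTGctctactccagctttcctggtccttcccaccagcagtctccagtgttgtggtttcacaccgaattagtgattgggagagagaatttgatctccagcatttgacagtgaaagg
Met intron 2, replicate 1 peak, chr6:17440852-17440991: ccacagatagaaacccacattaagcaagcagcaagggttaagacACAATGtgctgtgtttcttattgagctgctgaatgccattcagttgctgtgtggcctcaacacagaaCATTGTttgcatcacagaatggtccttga

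The peak in intron 4 lies 52521 bp after the Met start site, and that in intron 19 lies 98831 bp after it. Both hold the E-box CAGCTG, the motif bound by MyoD and related muscle factors, with 2 matches in intron 4 and 1 in intron 19, and neither holds a Sox match inside the deposited interval. The intron 2 peak, 27121 bp after the start site, holds 2 Sox matches of the ACAATG form, 1 on each strand, and no E-box. Over all 1066 common peaks, 52.0% held a Sox match and 55.5% an E-box in the deposited interval, which spans a median of 140 bp. In a window reaching 200 bp to either side of the centre, the intron 19 peak had 2 Sox matches and the intron 4 peak still none, against 71.9% of common peaks with one. Inside the deposited interval, a Runx match (CCACA) lay in the intron 19 peak and not in that of intron 4, against 60.8% of common peaks. A Tead match (GGAATG) lay in neither interval, against 23.4%. In the wider window the intron 4 peak had a Runx match and the intron 19 peak a Tead match, against 85.3% and 40.0% of common peaks. No Runx match overlapped an E-box in these peaks.

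Sox6 reads were concentrated at the 3 Met sites. In 450 bp around the intron 4 centre there were 33 and 22 Sox6 reads in replicates 1 and 2, which is 11.1 and 15.0 RPM (reads per 1000000 mapped reads), against 14 and 12 input reads, or 0.637 and 0.495 RPM. In intron 19 there were 33 and 18 Sox6 reads (11.1 and 12.3 RPM) against 9 and 11 input reads (0.41 and 0.454 RPM). Both Sox6 libraries were far above both inputs at both sites. As a ratio to the input of the same replicate, intron 4 had 17.3 and 30.3 times and intron 19 had 27.0 and 27.0 times the input level, where the median common peak had 9.81 times in replicate 1 and 12.2 times in replicate 2. These reads also called the peaks, so the ratios are descriptions.

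The intron 2 peak was called in replicate 1 alone, so the reads of replicate 2 could be used to test it, with an exact two-sided binomial test adjusted by Benjamini-Hochberg over all replicate 1 peaks. Both replicates had called the peaks in introns 4 and 19, and no test is given for them. The intron 2 site had 9 Sox6 reads against 15 input reads in replicate 2, which is 9.91 times input (3.82 to 24.2, exact binomial adjusted p = 1.66e-05), while replicate 1, where it was called, had 8 against 13. Of all replicate 1 peaks, those also called in replicate 2 included, 67.0% passed this test, and 84.4% of replicate 2 peaks passed in the reads of replicate 1. The intervals cover counting error only, and the reads carry no molecular identifiers.

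**Figure D1:**
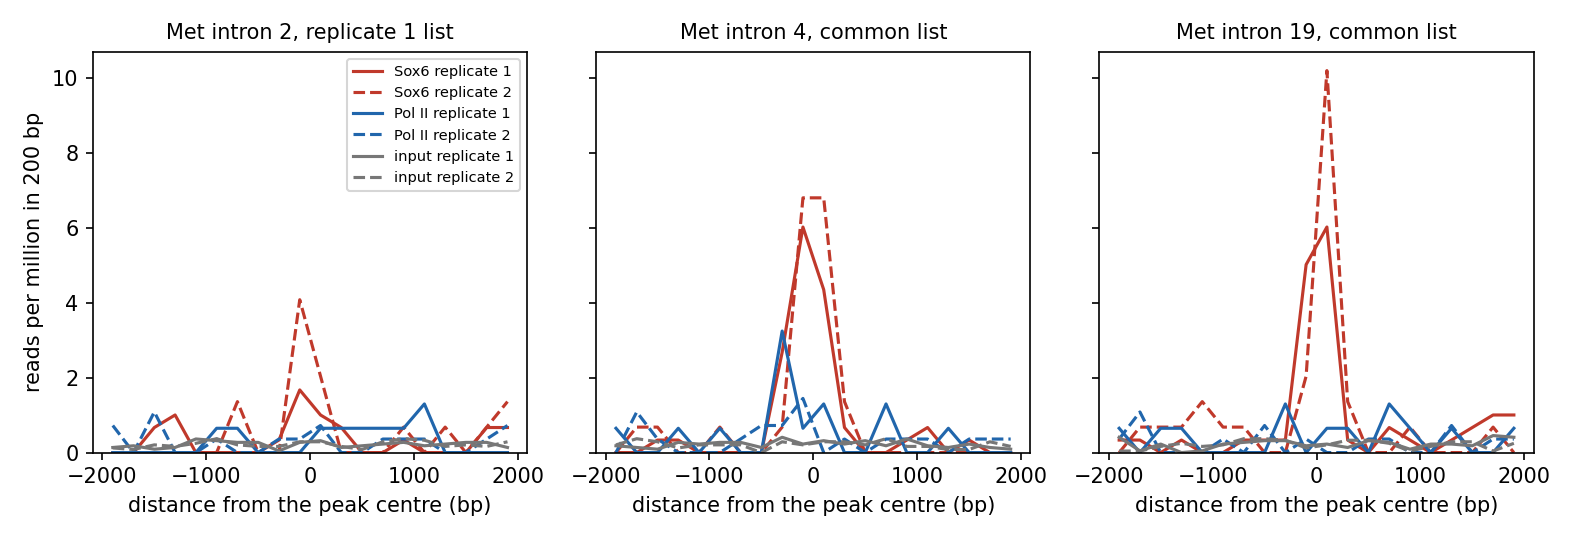
RPM in steps of 200 bp (vertical axis) against the distance from the peak centre in bp (horizontal axis) at the 3 Sox6 sites of Met, with 1 line per library, solid for replicate 1 and dashed for replicate 2. The Sox6 lines rise near the centre at all 3 sites, and the intron 2 site is the lowest, with 2.68 and 6.13 RPM in 450 bp against 11.1 to 15.0 RPM at the others.

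Pol II reads were few in the 450 bp windows of the same sites. The Pol II libraries held 3 and 4 reads at the intron 4 site, 3.06 and 2.93 times input (exact 95% intervals from 0.564 and from 0.688 up), and 1 and 1 at the intron 19 site, 1.59 times (0.0362 to 11.5) and 0.798 times input (0.0185 to 5.49). All 4 intervals start below 1 and end above it, so a difference from input was not detectable in these windows at this depth. A several-fold excess at intron 4 thus stays undecided. The intron 2 window held 1 and 3 Pol II reads against 13 and 15 input reads. At intron 4, the 200 bp step centred 300 bp before the peak centre held 5 and 2 Pol II reads, against 9 and 7 input reads. The step centred 300 bp after it held 0 and 1, against 5 and 7. Pol II in a wider window was not tested. Outside the 3 windows the Met gene held 319 of its 393 and 128 of its 177 Sox6 reads, which is 0.968 times (0.858 to 1.09) and 0.866 times input (0.719 to 1.03). Both intervals include 1.

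Pol II over the gene body separated the 7 genes. Lbx1, Pax7 and Pitx3 had more Pol II than input, Pax3, Meox1 and Meox2 had less, and Met did not pass the test. The test was limma voom on reads scaled to the library total, with Benjamini-Hochberg adjustment at 0.05 over 20987 genes, of which 38.6% were higher and 23.1% lower than input. Of the 7 genes, 3 were higher and 3 lower. The ratios of the 20 kb on either side of the 3 lower genes were also below 1 in both replicates. Their exact intervals included 1 in replicate 1 and lay below 1 in replicate 2. The 3 higher calls held under every alternative run, while the number lower was 1 when scaled to reads outside the called peaks, 0 without Pol II replicate 2 and 0 by the exact binomial test in both replicates (adjusted p = 0.07386 for Pax3, 0.1019 for Meox1 and 0.08421 for Meox2). The median log2 ratio was -0.05 over the 7 genes and 0.17 over all genes tested. No gene of the 7 had a Pol II peak of either replicate in it or its start window, where 15.2% of all genes had one in replicate 1 and 21.0% in replicate 2.

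**Figure D2:**
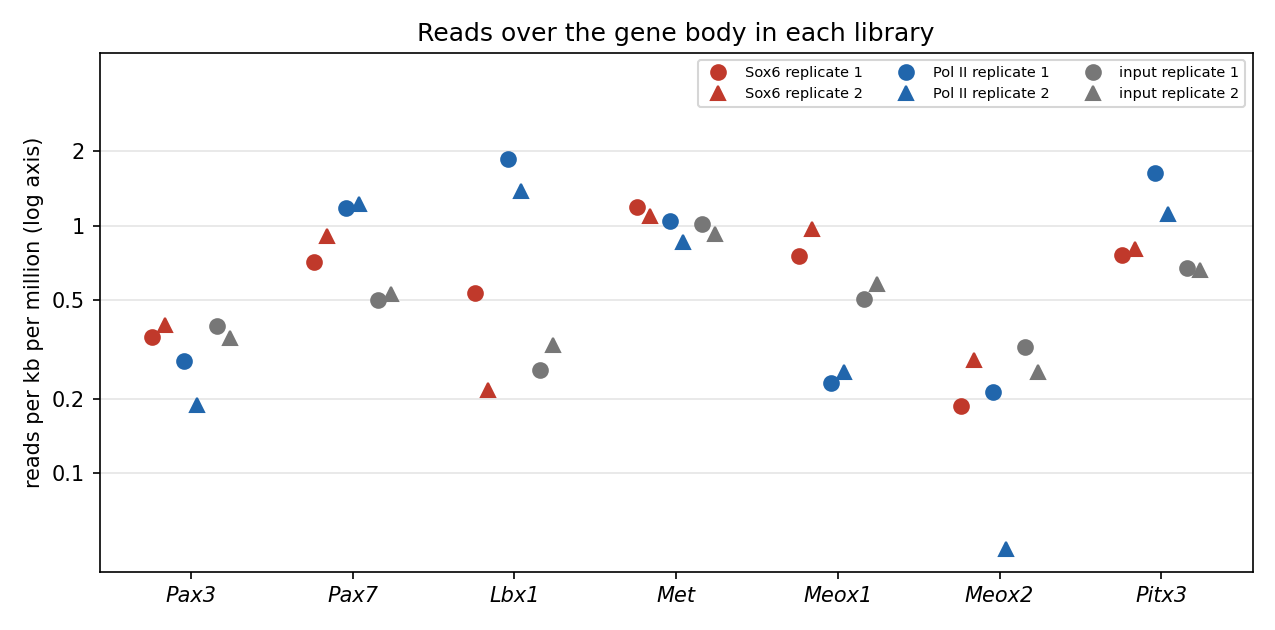
RPKM over the gene body (vertical axis, logarithmic) for the 7 genes (horizontal axis), with 1 point per library, coloured by group and shaped by replicate. Both Pol II points lie above both input points for Pax7, Lbx1 and Pitx3 and below them for Pax3, Meox1 and Meox2.

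Lbx1 (chromosome 19, 45307178 to 45310301, minus strand, 2 exons) is the shortest of the 7 genes at 3124 bp. Its body held 9 and 12 Pol II reads against 18 and 25 input reads, or 1.87 and 1.39 RPKM against 0.262 and 0.33 RPKM. Both Pol II libraries lay above both inputs, and the ratio was 5.42-fold (log2 ratio 2.44 ± 0.44 SE, limma voom adjusted p = 0.0001023). The 20 kb before its start also held more Pol II than input, at 2.70 times (exact 95% interval 1.83 to 3.89) on 35 reads and 2.67 times (2.03 to 3.48) on 73 reads. That stretch is longer than the gene, and its Pol II level was 1.14 and 1.32 RPKM, below that of the gene in each replicate. The 20 kb after its end were at 0.598 times (0.27 to 1.16) and 1.11 times input (0.733 to 1.63). Within 1 kb on each side of the start site, 6 and 13 Pol II reads stood against 6 and 18 input reads, a log2 ratio of 3.26 ± 0.60 SE (adjusted p = 4.645e-07). Leaving out input replicate 1 gave 2.61, and leaving out input replicate 2 gave 3.98. The start window covers part of this short gene, so these values share reads. No Sox6 read lay in the start window in either replicate, and the limit of 3 reads that a count of 0 allows is 3.68 and 2.75 times the input level there. That limit takes the input reads as exact. The exact 95% intervals, which do not, reach up to 6.25 and 3.76 times input.

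Pax7 (chromosome 4, 139292977 to 139389445, minus strand, 9 exons) spans 96469 bp, so its ratio rests on many reads. Its body held 175 and 327 Pol II reads against 1061 and 1240 input reads, or 1.18 and 1.23 RPKM against 0.501 and 0.53 RPKM. Both replicates gave nearly the same ratio, 2.36 times (exact 95% interval 2.00 to 2.77) and 2.32 times input (2.04 to 2.62), and the fit gave a log2 ratio of 1.23 ± 0.10 SE (limma voom adjusted p = 4.391e-09). The Pol II level was 4.46% and 3.43% of that of Actb, the beta-actin gene that the study used as its reference, and higher than in 74.5% and 75.4% of genes. Around the start site, 4 and 11 Pol II reads against 14 and 25 input reads gave a log2 ratio of 2.13 ± 0.59 SE (adjusted p = 0.001168), a call that was lost by the exact binomial test in both replicates (adjusted p = 0.08483).

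The Pol II reads on Pax7 covered the whole gene rather than its start alone. In each eighth of the gene, both Pol II replicates lay above the input of the same replicate, by 1.7 to 4.34 times in replicate 1 and 1.74 to 4.26 times in replicate 2. The first eighth was the highest in replicate 1, at 1.67 RPKM against 0.385 RPKM in input replicate 1. In the 20 kb after the gene's end, Pol II was at 0.52 and 0.525 RPKM and input at 0.523 and 0.53 RPKM. The 20 kb before the start held 0.877 and 0.706 RPKM of Pol II against 0.462 and 0.501 RPKM of input, a ratio of 1.90 and 1.41.

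**Figure D3:**
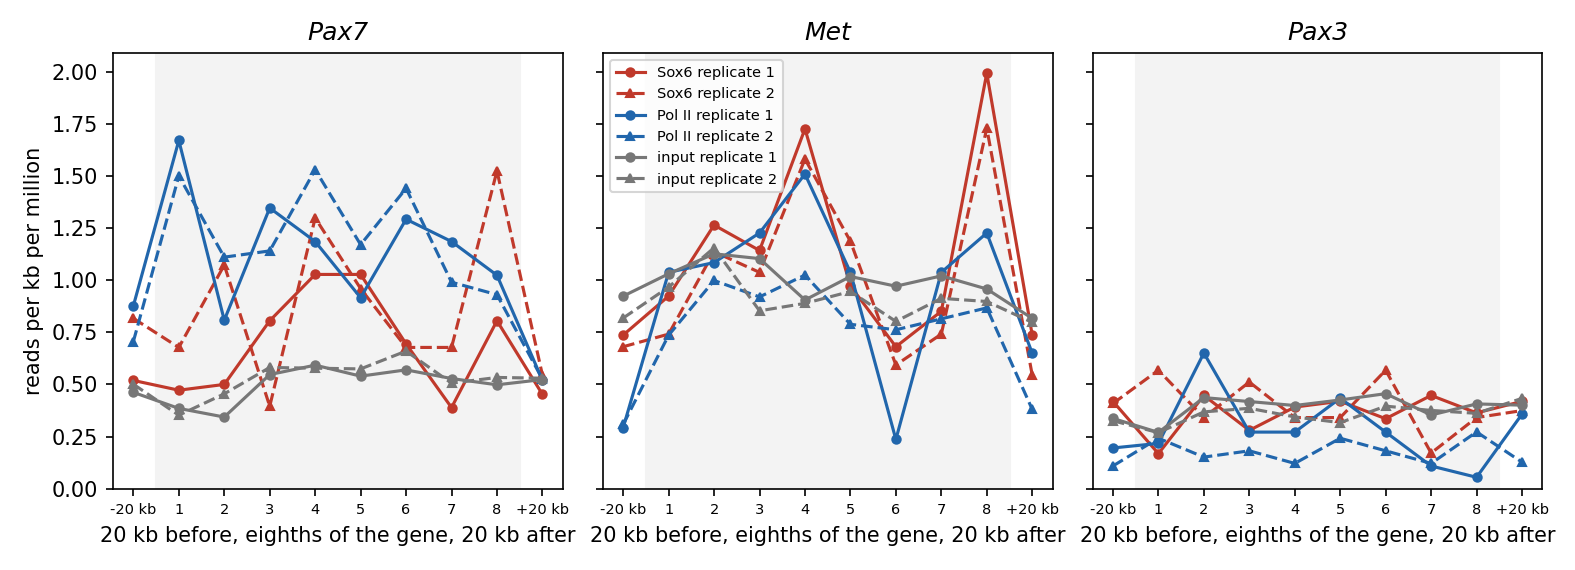
RPKM (vertical axis) in the 20 kb before the start, in each eighth of the gene from start to end (shaded) and in the 20 kb after the end (horizontal axis) for Pax7, Met and Pax3, with 1 line per library. On Pax7 the Pol II lines lie above the input lines in all 8 parts and meet them after the end, and on Met the Sox6 lines stand out in the fourth and the eighth part, which hold the common peaks.

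Pitx3 (chromosome 19, 46210175 to 46222865, minus strand, 4 exons) held 32 and 39 Pol II reads against 188 and 204 input reads, or 1.64 and 1.11 RPKM against 0.674 and 0.663 RPKM. Both Pol II libraries lay above both inputs, with a log2 ratio of 0.95 ± 0.23 SE (limma voom adjusted p = 0.001598). At the start site 5 and 7 Pol II reads against 19 and 33 input reads gave a log2 ratio of 1.42 ± 0.59 SE (adjusted p = 0.04073). This call was lost centred on the median gene (0.66, adjusted p = 0.3778) and with the replicate number as a block (1.34, adjusted p = 0.0718). It was also lost without input replicate 1 (1.10) and by the exact binomial test in both replicates (adjusted p = 0.3888). Pitx3 is not alone in this region: Gbf1, on the plus strand, starts 4183 bp from its start site, and Elovl3 overlaps its last 10 bp on the other strand. Gbf1 held 1.52 and 1.56 RPKM of Pol II (log2 ratio 1.10 ± 0.08 SE, adjusted p = 1.209e-09), and the 20 kb before the Pitx3 start, most of it Gbf1, held 1.53 and 1.57 RPKM. A Pol II peak of replicate 2 lay at the Gbf1 start, 4276 bp from Pitx3. The reads were counted without strand, and the part of Gbf1 in the Pol II reads of Pitx3 was not tested.

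Pax3 (chromosome 1, 78097845 to 78193709, minus strand, 8 exons) has nearly the length of Pax7 but held 42 and 50 Pol II reads, against 833 and 818 input reads. Its levels were 0.285 and 0.189 RPKM of Pol II against 0.395 and 0.352 RPKM of input, so both Pol II libraries lay below both inputs. The log2 ratio was -0.75 ± 0.21 SE (limma voom adjusted p = 0.004196). The interval of Pax3 (95% interval of the log2 ratio -1.19 to -0.32) does not meet that of Pax7 (1.02 to 1.44). At the Pax3 start site only 3 and 2 Pol II reads stood against 11 and 16 input reads, a log2 ratio of 1.31 ± 0.70 SE (adjusted p = 0.1232) that did not pass at this depth, although it did with 500 bp on each side (2.70, adjusted p = 0.006824), scaled to reads outside the called peaks (1.67, adjusted p = 0.04122) and without Pol II replicate 2 (1.93, adjusted p = 0.04466). It was lower without Pol II replicate 1 (0.60), centred on the median gene (0.55, adjusted p = 0.5484) and with 2 kb on each side (0.78, adjusted p = 0.3205). Over all genes tested the median start ratio was 0.76, and 1.4 with 500 bp on each side.

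Meox2 (chromosome 12, 37835127 to 37908372, plus strand, 3 exons) had the lowest ratio. It held 24 and 10 Pol II reads against 523 and 457 input reads, or 0.213 and 0.0494 RPKM against 0.325 and 0.257 RPKM, with a log2 ratio of -1.71 ± 0.43 SE (limma voom adjusted p = 0.001942). The Pol II replicates differed here, at 0.655 times (0.416 to 0.986) and 0.192 times input (0.0915 to 0.357). Meox1 (chromosome 11, 101738824 to 101755688, minus strand, 3 exons) held 6 and 12 Pol II reads against 188 and 239 input reads, or 0.231 and 0.258 RPKM against 0.507 and 0.584 RPKM, with a log2 ratio of -1.07 ± 0.39 SE (adjusted p = 0.02502). The transcript Gm11551 lies inside Meox1 on the other strand, and reads of the pair cannot be told apart. The 20 kb before the start were at 0.579 and 0.333 times input for Pax3, 0.725 and 0.259 for Meox1 and 0.705 and 0.101 for Meox2. The 20 kb after the end were at 0.893 and 0.293 for Pax3, 0.708 and 0.472 for Meox1 and 0.196 and 0.244 for Meox2. The exact intervals of all these flanks included 1 in replicate 1 and lay below 1 in replicate 2. In replicate 2, low ratios were thus not limited to the bodies of these genes. A ratio below input is a ratio of shares of a library, and part of each Pol II library lies on genes with much Pol II. Scaled to reads outside the called peaks, the median ratio over all genes moved from 0.17 to 0.52 and only Meox2 of the 3 lower genes passed, with Pax3 at -0.39 (adjusted p = 0.1094) and Meox1 at -0.71 (adjusted p = 0.1331). Without Pol II replicate 2 none of the 3 passed, with Meox2 at -0.41 (adjusted p = 0.3517), Pax3 at -0.37 (adjusted p = 0.2678) and Meox1 at -1.13 (adjusted p = 0.1445).

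Met held 178 and 263 Pol II reads against 2462 and 2480 input reads, or 1.05 and 0.864 RPKM against 1.02 and 0.928 RPKM. The groups overlapped, and the log2 ratio was -0.05 ± 0.11 SE (limma voom adjusted p = 0.6964) with an interval from -0.29 to 0.18. The sign turned with the scaling, and with reads outside the called peaks as the total the gene was higher than input (0.30, adjusted p = 0.02214). The input itself was high over Met: the 2 100 kb bins that hold the gene had 2.28 to 2.66 times the median autosomal bin in input replicate 1 and 2.23 to 2.51 times in input replicate 2, against 1.16 and 1.17 times for the median bin of chromosome 6. In the bins of the other 6 genes this value ran from 0.778 to 1.99. By RPKM without regard to input, Met had more Pol II than 71.6% and 66.5% of genes and more input reads than 98.9% and 98.0%. The 20 kb before the Met start held less Pol II than input, at 0.317 times (exact interval 0.144 to 0.607) and 0.376 times (0.217 to 0.61). The 20 kb after its end were at 0.796 times (0.48 to 1.25) and 0.476 times input (0.292 to 0.739). The gene itself was at 1.03 and 0.931 times input, above either flank in each replicate. A difference between the gene and its flanks was not tested.

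The order of Pol II ratios ran Lbx1, Pax7, Pitx3, Met, Pax3, Meox1, Meox2. The replicate values of neighbours did not overlap between Lbx1 and Pax7, Pitx3 and Met, Met and Pax3, and Pax3 and Meox1, and the 95% intervals of the fit were also apart for the first 3 of these pairs. Pax7 and Pitx3, and Meox1 and Meox2, did not differ beyond their spread. Both pairs changed order without Pol II replicate 2, with Pitx3 at 1.31 and Pax7 at 1.20, and Meox2 at -0.41 and Meox1 at -1.13.

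**Figure D4:**
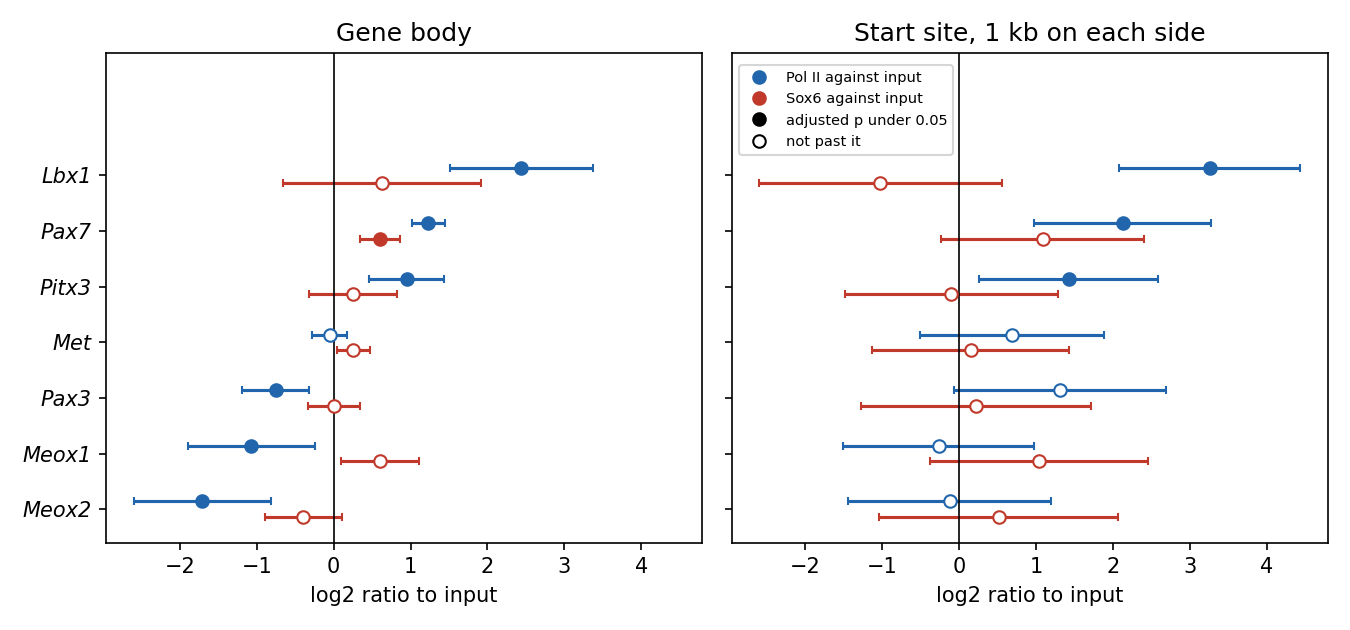
The log2 ratio to input (horizontal axis) with its 95% interval from limma voom (bars) for the 7 genes (vertical axis), over the gene body on the left and within 1 kb of the start site on the right, for Pol II and Sox6. Filled points passed an adjusted p of 0.05: 6 genes for Pol II over the body, 3 for Pol II at the start site and Pax7 for Sox6 over the body.

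At start sites, 36.5% of 21828 genes had more Pol II than input and 5.77% less, and Lbx1, Pax7 and Pitx3 were the 3 higher genes of the 7, Pax7 and Pitx3 not under all settings, with none lower. The start windows of the 7 genes held between 0 and 13 Pol II reads, so a gene that did not pass is undecided. Meox1 had 2 and 0 Pol II reads against 8 and 27 input reads, and Meox2 0 and 1 against 13 and 8. Met, with 4 and 6 against 29 and 45, had a log2 ratio of 0.68 (adjusted p = 0.3884), and passed with 500 bp on each side (2.25, adjusted p = 0.00963). Over all genes tested the median log2 ratio was 0.76 within 1 kb and 1.4 within 500 bp of the start, so the usual ratio at a start lay above 0. Within 1 kb it was 0.41 with a pseudocount equal in RPM, so its size depends on the reads added.

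The start regions differed in CpG content, which is high at many promoters of developmental regulators. Within 1 kb on each side the ratio of observed to expected CpG was highest at Lbx1 (0.749, above 86.5% of genes) and lowest at Meox1 (0.317), against a median of 0.471 over all 23030 start windows. Met had 0.677, Pitx3 0.608, Pax7 0.607, Pax3 0.592 and Meox2 0.46. The 200 bases before the start site are given for the 3 genes with Pol II above input at the start, on the strand of the gene in NCBI Build 37, with each CG in capitals.
Lbx1, minus strand, chr19:45310302-45310501: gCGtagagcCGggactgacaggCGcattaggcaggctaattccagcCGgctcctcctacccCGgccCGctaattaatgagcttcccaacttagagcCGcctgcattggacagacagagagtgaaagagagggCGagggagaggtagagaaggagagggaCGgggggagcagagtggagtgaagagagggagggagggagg
Pax7, minus strand, chr4:139389446-139389645: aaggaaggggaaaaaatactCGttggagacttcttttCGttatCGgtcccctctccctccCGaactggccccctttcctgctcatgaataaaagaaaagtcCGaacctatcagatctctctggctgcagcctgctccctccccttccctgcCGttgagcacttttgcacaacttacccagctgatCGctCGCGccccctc
Pitx3, minus strand, chr19:46222866-46223065: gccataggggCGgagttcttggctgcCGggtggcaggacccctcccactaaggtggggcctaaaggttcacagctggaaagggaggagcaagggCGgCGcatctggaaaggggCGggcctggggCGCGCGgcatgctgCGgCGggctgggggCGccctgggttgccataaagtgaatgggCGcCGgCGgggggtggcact
These stretches hold 9, 9 and 14 CG. The E-box was found in the start window of all 7 genes (91.1% of all start windows had one) and the Sox motif in those of Pax3, Met, Meox1 and Meox2 (87.9%).

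Sox6 over the gene body was higher than input for Pax7 alone of the 7 genes, and lower for none. Over all 20985 genes tested, 7.01% were higher and 1.46% lower, with a median log2 ratio of 0.18. With the replicate number added to the fit as a block, 3 of the 7 were higher: Pax7, Met and Meox1. Pax7 held 206 and 129 Sox6 reads, or 0.715 and 0.911 RPKM, both above the inputs, with a log2 ratio of 0.60 ± 0.13 SE (limma voom adjusted p = 0.004147), which is 1.43 times (1.22 to 1.66) and 1.72 times input (1.42 to 2.06) by replicate. No Sox6 peak of any list lay within 20 kb of Pax7, the nearest being 454 kb away, and the excess was spread over the gene, with 7 of its 8 parts above input in each replicate. The Pol II and Sox6 ratios of Pax7 share their inputs. The call was lost without Sox6 replicate 2 (0.48, adjusted p = 0.08048) and with a pseudocount equal in RPM (0.65, adjusted p = 0.09552), a setting in which 0 of all genes passed.

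The other genes had smaller or less certain Sox6 ratios. Meox1 held 38 and 24 Sox6 reads, a log2 ratio of 0.61 ± 0.25 SE (limma voom adjusted p = 0.1281), and Met 393 and 177, a log2 ratio of 0.26 ± 0.10 SE (adjusted p = 0.1276). By replicate Meox1 was at 1.49 times (1.02 to 2.12) and 1.66 times input (1.04 to 2.53). As in Pax7, 7 of its 8 parts lay above input in each replicate, but on few reads. The parts of Meox1 held 1 to 8 and 1 to 5 Sox6 reads in replicates 1 and 2, against 14 to 37 and 7 to 27 in Pax7. Met passed without input replicate 1 (0.32, adjusted p = 0.01232) and Meox1 without input replicate 2 (0.71, adjusted p = 0.03122), where Meox2 was lower (-0.56, adjusted p = 0.04985). Lbx1 was at 0.63 ± 0.62 SE on 5 and 1 reads, Pitx3 at 0.25 ± 0.28 SE, Pax3 at 0.0015 ± 0.16 SE and Meox2 at -0.40 ± 0.24 SE. The interval of the Pax3 log2 ratio ran from -0.33 to 0.34. At start sites Sox6 passed for none of the 7 genes by limma voom, where 0.862% of 21922 genes were higher and 0.0365% lower. The median log2 ratio over these start windows was 0.40, and 0.039 with a pseudocount equal in RPM. The start windows held 0 to 5 Sox6 reads, and at an unadjusted p under 0.05 none of the 7 passed either.

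Genes of the same families and pathways were counted in 4 lists, with Pol II over the gene body against input by limma voom and the shares over all genes (38.6% higher, 23.1% lower, median 0.17) beside them. Of 11 paralogues (among them the other Pax genes, Lbx2 and Mst1r), 1 was higher and 6 lower, with a median log2 ratio of -0.88. Lbx2, a homeobox factor related to Lbx1, was at 0.44 ± 0.72 SE and did not pass. The lowest were Pax1 and Pax4, each with 0 and 1 Pol II reads, against 158 and 148 and against 78 and 88 input reads.

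Of 16 progenitor regulators, 8 were higher and 6 lower than input, with a median of 0.50. The highest was Myod1, the myogenic determination factor, at 5.77 ± 0.23 SE with 33.0 and 33.7 RPKM. The lowest were Zic1 with 1 and 0 Pol II reads against 69 and 65 input reads and Tcf15, a factor of the somite, with 0 and 1 against 34 and 34. Of 16 satellite cell genes, 8 were higher and 3 lower, with a median of 0.51. Cdh15, the muscle cadherin, which is also in the myotube list, was at 4.30 ± 0.14 SE and Itga7, an integrin of the muscle surface, at 3.15 ± 0.10 SE, while Calcr, the calcitonin receptor of quiescent satellite cells, was at -1.81 ± 0.26 SE and Cd34 at -1.09 ± 0.32 SE.

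Of 12 genes of the Met pathway, 6 were higher and 2 lower, with a median of 0.24. The signalling genes Stat3 (1.46 ± 0.12 SE) and Ptpn11 (1.39 ± 0.11 SE) were the highest. Hgf, the ligand of Met, was the lowest at -2.15 ± 0.35 SE, with 0.0986 and 0.115 RPKM of Pol II against 0.546 and 0.456 RPKM of input, followed by Spint1, an inhibitor of the protease that activates the ligand, at -1.55 ± 0.54 SE. A common Sox6 peak lay in or within 20 kb of 0 of the 11 paralogues, 1 of 16 progenitor regulators (Msc), 2 of 16 satellite cell genes (Ncam1 and Megf10) and 1 of 12 Met pathway genes (Ptpn11), where 4.32% of all genes had one. These 4 genes are named after their values were seen.

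**Figure D5:**
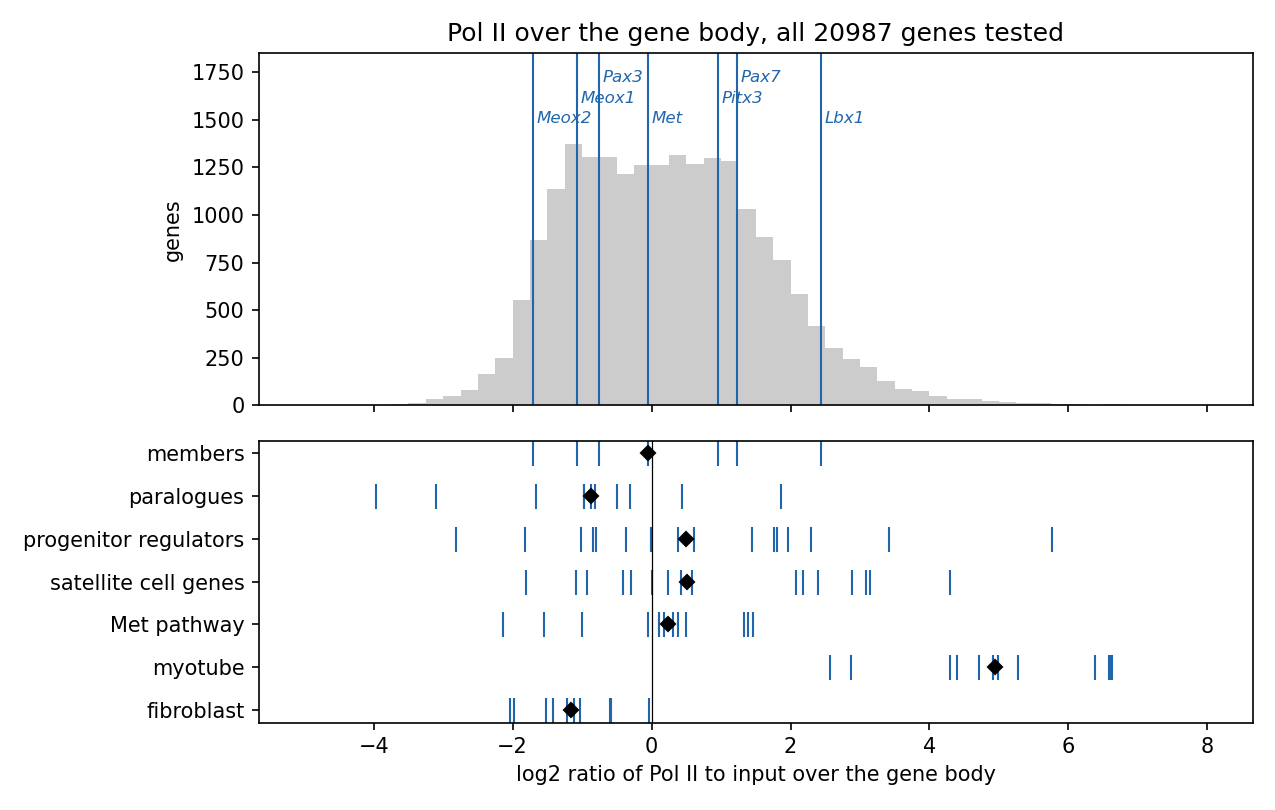
Above, the number of genes (vertical axis) by log2 ratio of Pol II to input over the gene body (horizontal axis) for all 20987 genes tested, with blue lines at the 7 genes. Below, the same ratio for each gene (blue ticks) of the 7 members and of 6 lists, with the median of each as a black diamond, which is 4.95 for myotube markers, -1.16 for fibroblast markers and -0.05 for the members.

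The genes most like each member were found from 8 values, the log2 ratios to input of Sox6 and Pol II in 2 replicates over the gene body and at the start site, by Euclidean distance among 18811 protein-coding genes. They were Osmr, Arsb and Cdc45 for Pax3 (distances 0.574 to 0.725, where the median gene lay at 3.69), Plcb3, Nrm and 1500001M20Rik for Pax7 (0.662 to 0.692), Slc7a8, Arhgap44 and Slc25a37 for Met (0.671 to 0.696) and Fgfr1, Senp2 and Tram2 for Pitx3 (0.642 to 0.731). For the genes with fewer reads the nearest genes lay farther away, at 1.36 to 1.38 for Lbx1 (Adprh, Snapc5 and Nbl1), 1.05 to 1.26 for Meox1 (Wnt11, Ntn1 and Dkk3) and 1.04 to 1.39 for Meox2 (1700001L19Rik, Ms4a4c and Rasgrf2). The median gene also lay farther from Lbx1, Meox1 and Meox2, at 5.79, 5.47 and 4.48, against 3.33 to 3.89 for the other members. The start-site values rest on few reads for every member, with 3 and 2 Pol II and 1 and 1 Sox6 reads for Pax3. All these matches therefore depend in part on small counts.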

How the data were processed

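Reads of Sox6 ChIP, Pol II ChIP and input libraries were, per the submitters' processing notes, aligned to mm9 with Bowtie 0.12.5. The authors kept uniquely mapped reads and ran SISSRs on each ChIP library with its own input as background and a fragment length set to 450 bp. Sox6 peaks of both replicates no more than 50 bp apart form the common list. The deposited files hold read and peak positions with a score column that is constant for the reads and the Sox6 peaks. The score of the Pol II peaks is unnamed and was not used, so no deposited value measures a level.

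Here, reads were counted by their 5' end over the longest gene model (GENCODE vM1 genes named in RefSeq, whose table is of GRCm38.p6 and gave names only) and within 1 kb of its start, and scaled to the library total. Each antibody was compared with the 2 inputs by limma voom (limma 3.58.1, R 4.3.3) on counts with 0.5 reads added, for genes with at least 10 reads over the 4 libraries. All libraries were grouped as labelled. Start windows had a median of 2 to 3 ChIP reads and gene bodies of 12 to 24. In simulated data for gene bodies, 83 of 100 genes changed 4-fold were found for Pol II and 83 for Sox6, and 13 and 11 of 100 changed 2-fold. At start sites 14 and 26 of 100 changed 4-fold were found, and none of those changed 2-fold, and the median log2 ratio of windows simulated without a change was 0.173 and 0.165 rather than 0, which raises ratios where reads are few. Peaks were placed by their centre. Single peaks were compared by exact two-sided binomial tests, and intervals are exact (Clopper-Pearson, 95%) and cover counting error only. Python 3.11.15, numpy, pandas, scipy and matplotlib were used.

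The members, lists, tests and the rule for named genes (the 7 members, their neighbours within 20 kb, the 3 nearest genes by pattern, the 2 highest and 2 lowest genes of each list by Pol II, and Actb) were chosen with earlier results of these data known. Mymk was found as Tmem8c. Some genes and sequences that this rule names are not reported here. Alternatives were limma with a trend, other scalings, centring, pseudocounts and windows, no filter, repeated positions counted once, reads moved by 75 bp, all 6 libraries in 1 fit, the replicate number as a block, exact binomial tests in each replicate, and each library left out.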

Additional observations from a re-analysis of the deposited data

How the results depend on the processing

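The Pol II calls of Lbx1, Pax7 and Pitx3 over gene bodies and of Lbx1 at the start site held under every alternative run. Leaving out libraries gave 7076 to 8331 genes higher and 2561 to 5524 lower for Pol II over bodies (0 to 3 of the 7 lower), 0 to 878 lower at starts, 647 to 3019 higher and 100 to 988 lower for Sox6 over bodies (0 to 2 of the 7 higher and 0 to 1 lower, without input replicate 2 Meox2 at -0.56, adjusted p = 0.04985), and 52 to 804 higher and 0 to 5 lower for Sox6 at starts. The lone library of a group is then assumed to vary like the other pair. 

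Pol II over bodies, main counts 8097 higher and 4850 lower: scaled to reads outside peaks 3011 were lower (1 of the 7) and Met turned to 0.30 and passed (adjusted p = 0.02214), and the exact binomial in both replicates gave 3073 lower (0 of the 7). Met ran from -0.17 to 0.12 as libraries were left out, with 0.12 without Pol II replicate 2 and 0.0025 without input replicate 1. Meox2 was at -1.49 (adjusted p = 0.1204) with a pseudocount equal in RPM. Meox1 did not pass without Pol II replicate 1 either (adjusted p = 0.06074).

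Pol II at starts, main counts 7964 higher and 1260 lower: lower genes numbered 298 with limma trend, 611 scaled to reads outside peaks, 3832 centred on the median gene (with 5210 higher), 2985 with a pseudocount equal in RPM, 524 with no filter, 771 with all 6 libraries in 1 fit, 209 within 500 bp (5 of the 7 higher), 2424 within 2 kb and 0 by the exact binomial (5171 higher, 1 of the 7, Lbx1). Pitx3 lost its call when centred (0.66, adjusted p = 0.3778) and without input replicate 1 (adjusted p = 0.1218). Reversed values, none of which passed, were Met centred -0.075, Meox1 0.10 (outside peaks), -1.89 to 1.28 as libraries were left out (above 0 without Pol II replicate 2, and 0.54 without input replicate 2) and 0.84 (500 bp), and Meox2 0.23 (outside peaks), -0.55 to 0.24 as libraries were left out (above 0 without Pol II replicate 1) and 0.85 (500 bp).

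Sox6 over bodies, main counts 1471 higher and 306 lower: 529 higher and 937 lower centred, 0 and 0 with a pseudocount equal in RPM (0 of the 7, Pax7 adjusted p = 0.09552), 2612 higher with no filter and 920 by the exact binomial. Reversed were Pax3 (-0.18 centred, -0.059 without Sox6 replicate 2, and -0.086 to 0.11 over the libraries left out, lowest without input replicate 2) and Meox2 (-0.61 to 0.020, highest without Sox6 replicate 1). Met passed without input replicate 1 (adjusted p = 0.01232).

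Sox6 at starts, main counts 189 higher and 8 lower: 75 and 0 with limma trend, 47 and 13 centred, 0 and 0 with a pseudocount equal in RPM, 304 and 1 with no filter, 15 lower in 1 fit, 72 and 0 within 500 bp, 535 and 0 within 2 kb, 27 and 0 by the exact binomial. Reversed values, none of which passed, were Pax3 -0.18 (centred), -0.24 (RPM pseudocount), -0.30 (2 kb) and -0.26 to 0.77 over the libraries left out (lowest without Sox6 replicate 2), Lbx1 0.21 (500 bp) and 0.053 (2 kb), Met -0.25 (centred), -0.050 (RPM pseudocount), -0.061 to 0.42 over the libraries left out (lowest without input replicate 1) and -0.28 (2 kb), Meox2 -1.25 (RPM pseudocount), -0.43 to 1.35 over the libraries left out (lowest without Sox6 replicate 1, and -0.055 without input replicate 2), and Pitx3 -1.16 to 1.09 over the libraries left out (highest without Sox6 replicate 1), 0.42 (without input replicate 2) and 0.53 (500 bp).

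With the deposited interval, 902 replicate 1 peaks and 790 replicate 2 peaks passed in the other replicate, against 1936 and 1463. Within 200 bp of the centre, 1 common Met peak had a Sox match, 2 a Runx match and 1 a Tead match. The cause of these changes was not tested.

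Same-numbered libraries did not deviate together (correlation of deviations over 17410 genes 0.0701 for Sox6 and input, -0.00651 for Pol II and input). With the replicate block, Sox6 over bodies gave 3184 higher and 837 lower genes (3 of the 7: Pax7, Met with adjusted p = 0.03125 and Meox1 with adjusted p = 0.03495), Sox6 at starts 19 lower, Pitx3 Pol II at the start 1.34 (adjusted p = 0.0718), Pitx3 Sox6 at the start 0.025 and Pax3 Sox6 over the body -0.023.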
